A study of Bos taurus with 12 samples.

Results

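ENPP1, ENPP2, ALPL, ANKH, NT5E, MGP, RUNX2 and SOX9 are 8 genes grouped here around ENPP1 and the control of mineral. These 8 were followed through the differentiation of bovine intramuscular preadipocytes. They were picked by symbol from the 33714 rows of the deposited mRNA table with their levels over the 4 sampled days already known. Those levels, in FPKM (sequenced fragments scaled for transcript length and for the mapped reads of a library), are therefore given as a description, with no test. All 8 genes had 1 row each, and all 8 passed the filter used for tests, a mean of at least 0.1 FPKM over the 12 libraries.

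ENPP1 is a membrane ectoenzyme that splits ATP outside the cell into AMP and pyrophosphate, a strong inhibitor of hydroxyapatite crystals, and it is also known to dampen signalling by the insulin receptor. ANKH is a membrane protein needed for the release of ATP and pyrophosphate, ALPL (tissue-nonspecific alkaline phosphatase) removes pyrophosphate and sets phosphate free, and NT5E turns AMP into adenosine. ENPP2 (autotaxin), a secreted relative of ENPP1 that fat cells release, makes lysophosphatidic acid, MGP is a vitamin K-dependent inhibitor of calcification, and RUNX2 and SOX9 are the leading transcription factors of the bone and cartilage lineages, which arise from the same mesenchymal precursors as fat cells.

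The cells were preadipocytes, precursors of fat cells, which by the study's methods were isolated from newborn Qinchuan cattle out of the longissimus dorsi muscle, and the sample labels call them intramuscular adipocytes. Nearly confluent cultures gave the uninduced libraries (0 d), and induced cultures were sampled on days 3, 6 and 9, each day with 3 libraries. By the labels, induction was 48 h in medium with 15% serum, 0.5 mM IBMX (a phosphodiesterase inhibitor), dexamethasone (a glucocorticoid) and insulin, followed by the same medium with insulin alone. The labels and the methods give different concentrations of dexamethasone and insulin. Cells of 3, 6 and 9 d were thus all in insulin alone when sampled, and cells of 0 d had received none of the 3 agents. The 3 libraries of a day are described as biological replicates, and whether the replicate numbers link libraries across days is not known. Each library holds the RNA of a whole culture, in which fewer cells of a type and less RNA per cell cannot be told apart. FPKM hold no read counts, so the depth behind a single FPKM is not known. In the circRNA table the scaled signal (SRPBM, spliced reads scaled to the mapped reads) implies 53300000 to 77300000 reads per library, and the back-spliced reads number 5358 to 10729 per library.

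The first question was how the enzyme that makes pyrophosphate varied over the days. At 0 d the 3 libraries held 2.86, 2.41 and 2.73 FPKM of ENPP1, a mean of 2.67 ± 0.232 (SD, n = 3). At 3 d they held 302, 307 and 274 FPKM, a mean of 295 ± 17.8 (SD, n = 3) and 110 times the mean of 0 d. ENPP1 was thus a weakly expressed gene in uninduced cells and an abundant one at 3 d, moving from place 9356 to place 602 among all 33714 rows ordered by mean FPKM. At 6 d the libraries held 27.9, 45.5 and 34.3 FPKM (mean 35.9 ± 8.93, SD, n = 3), and ENPP1 stood at place 2969. At 9 d they held 19.5, 15.8 and 24.4 FPKM (mean 19.9 ± 4.34, SD, n = 3), at place 4176. The libraries of the 4 days formed 4 separate ranges, with 3 d on top and 0 d at the bottom, so that the level of 9 d was still 7.46 times that of uninduced cells. On the log2 scale the difference from 0 d was 6.74 (SE 0.09) at 3 d, 3.68 (SE 0.22) at 6 d and 2.83 (SE 0.19) at 9 d. From 3 d to 6 d it was -3.06 (SE 0.21). Ordered by this difference at 3 d, the highest first, ENPP1 took place 15 of the 15402 mRNAs that passed the filter.

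ANKH, the gene for the release of ATP and pyrophosphate, had the opposite course. Its FPKM were 52.2, 52.3 and 54.3 at 0 d (mean 52.9 ± 1.19, SD, n = 3) and 9.70, 9.78 and 11.9 at 3 d (mean 10.46 ± 1.25, SD, n = 3). ANKH at 0 d was thus 5.06 times its level at 3 d, the day of the ENPP1 peak. At 6 d the libraries held 29.0, 15.7 and 16.8 FPKM (mean 20.5 ± 7.39, SD, n = 3), and at 9 d 36.8, 17.7 and 36.5 FPKM (mean 30.3 ± 10.96, SD, n = 3). Every library of 3, 6 and 9 d lay below every library of 0 d, while the libraries of 6 d and 9 d overlapped. The log2 difference from 0 d was -2.33 (SE 0.10) at 3 d, -1.42 (SE 0.28) at 6 d and -0.88 (SE 0.35) at 9 d. The second library of 9 d was the low one, and without it the last value was -0.53.

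ALPL, the phosphatase that removes pyrophosphate, was low before induction and highest on the last day. It stood at 0.68, 1.83 and 1.09 FPKM at 0 d (mean 1.2 ± 0.583, SD, n = 3) and at 11.5, 12.1 and 9.76 FPKM at 3 d (mean 11.1 ± 1.222, SD, n = 3). At 6 d it stood at 11.4, 14.9 and 9.51 FPKM (mean 11.95 ± 2.76, SD, n = 3), and at 9 d at 24.9, 26.1 and 24.5 FPKM (mean 25.2 ± 0.822, SD, n = 3). The libraries of 3 d and 6 d overlapped, and those of 9 d lay above all others. The log2 difference from 0 d was 3.20 (SE 0.39), 3.29 (SE 0.42) and 4.38 (SE 0.38) at 3, 6 and 9 d, and 2.49, 2.57 and 3.61 with a pseudocount of 1. At 9 d this put ALPL at place 17 of 15402.

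NT5E, which makes adenosine from the AMP that ENPP1 leaves, was already abundant at 0 d and higher on every induced day. Its libraries held 40.2, 38.4 and 41.1 FPKM at 0 d (mean 39.9 ± 1.41, SD, n = 3) and 126, 120 and 134 FPKM at 3 d (mean 127 ± 7.41, SD, n = 3). They held 144, 150.3 and 146 FPKM at 6 d (mean 147 ± 3.06, SD, n = 3) and 138, 133 and 151 FPKM at 9 d (mean 141 ± 9.23, SD, n = 3). All 9 libraries of the induced days lay above those of 0 d, and 6 d and 9 d overlapped. The log2 difference from 0 d was 1.66 (SE 0.06), 1.88 (SE 0.03) and 1.82 (SE 0.06) at 3, 6 and 9 d.

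ENPP2, the enzyme of lysophosphatidic acid, was the steadiest of the 8 genes, with a highest day only 1.40 times its lowest. Its FPKM were 147, 139 and 118 at 0 d, 161, 133 and 129 at 3 d, 117, 148 and 116 at 6 d, with 189, 181 and 162 at 9 d. The day means were 135 ± 14.9, 141 ± 17.6, 127 ± 18.3 and 178 ± 13.7 (SD, n = 3 each). The libraries of 0, 3 and 6 d overlapped, and those of 9 d lay above all of 0, 3 and 6 d, with a log2 difference of 0.40 (SE 0.11) from 0 d, or 0.61 after rescaling by the median ratio. The differences of 3 d and 6 d from 0 d were 0.07 (SE 0.14) and -0.09 (SE 0.15), both smaller than their errors. The first was -0.03 without the first 3 d library, and the second was 0.08 after the same rescaling.

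MGP, the calcification inhibitor, stayed low throughout. Its libraries held 0.72, 0.45 and 1.07 FPKM at 0 d, 0.97, 1.77 and 1.56 at 3 d, 3.60, 2.22 and 1.97 at 6 d, with 4.60, 1.95 and 4.30 at 9 d. The means were 0.747 ± 0.311, 1.43 ± 0.415, 2.60 ± 0.878 and 3.62 ± 1.45 FPKM (SD, n = 3 each). Libraries of neighbouring days overlapped except those of 3 d and 6 d, and all libraries of 6 d and 9 d lay above those of 0 d. The log2 difference from 0 d was 0.89 (SE 0.40), 1.69 (SE 0.41) and 2.11 (SE 0.50) at 3, 6 and 9 d, and 0.48, 1.03 and 1.36 with a pseudocount of 1.

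RUNX2, the transcription factor of bone formation, was present on every day, at 33.7, 34.4 and 29.0 FPKM at 0 d, 62.4, 48.4 and 10.3 at 3 d, 41.3, 40.0 and 38.6 at 6 d, with 25.8, 21.7 and 23.8 at 9 d. The means were 32.4 ± 2.90, 40.4 ± 27.0, 40.0 ± 1.32 and 23.8 ± 2.07 FPKM (SD, n = 3 each). The third 3 d library held the lowest value of all 12, and the other 3 d libraries the highest. For that reason the log2 difference of 3 d from 0 d was -0.04 (SE 0.81) with all libraries, 0.77 without the third 3 d library and -0.53 without the first, and that of 6 d from 3 d turned from 0.34 (SE 0.81) to -0.46 without the third and 0.83 without the first. Every 6 d library lay above every 0 d library, and every 9 d library below, with log2 differences of 0.31 (SE 0.08) and -0.44 (SE 0.10), which were 0.48 and -0.24 after rescaling by the median ratio.

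SOX9, the transcription factor of cartilage, was scarce, with its lowest level at 6 d. Its libraries held 2.49, 2.87 and 2.65 FPKM at 0 d, 1.42, 1.34 and 1.27 at 3 d, 0.40, 0.32 and 0.51 at 6 d, with 2.53, 2.70 and 3.41 at 9 d. The means were 2.67 ± 0.191, 1.34 ± 0.0751, 0.41 ± 0.0954 and 2.88 ± 0.467 FPKM (SD, n = 3 each). The ranges of 3 d and 6 d were separate from each other and from the rest, while 0 d and 9 d overlapped. The log2 difference from 0 d was -0.94 (SE 0.07) at 3 d, -2.46 (SE 0.17) at 6 d and 0.10 (SE 0.14) at 9 d, the last of which was -0.03 without the third 9 d library and 0.30 after rescaling. From 6 d to 9 d it was 2.55 (SE 0.20). At levels this low the size depends on the pseudocount, and with a pseudocount of 1 the values were -0.65 at 3 d, -1.38 at 6 d and 1.46 from 6 d to 9 d.

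**Figure D1:**
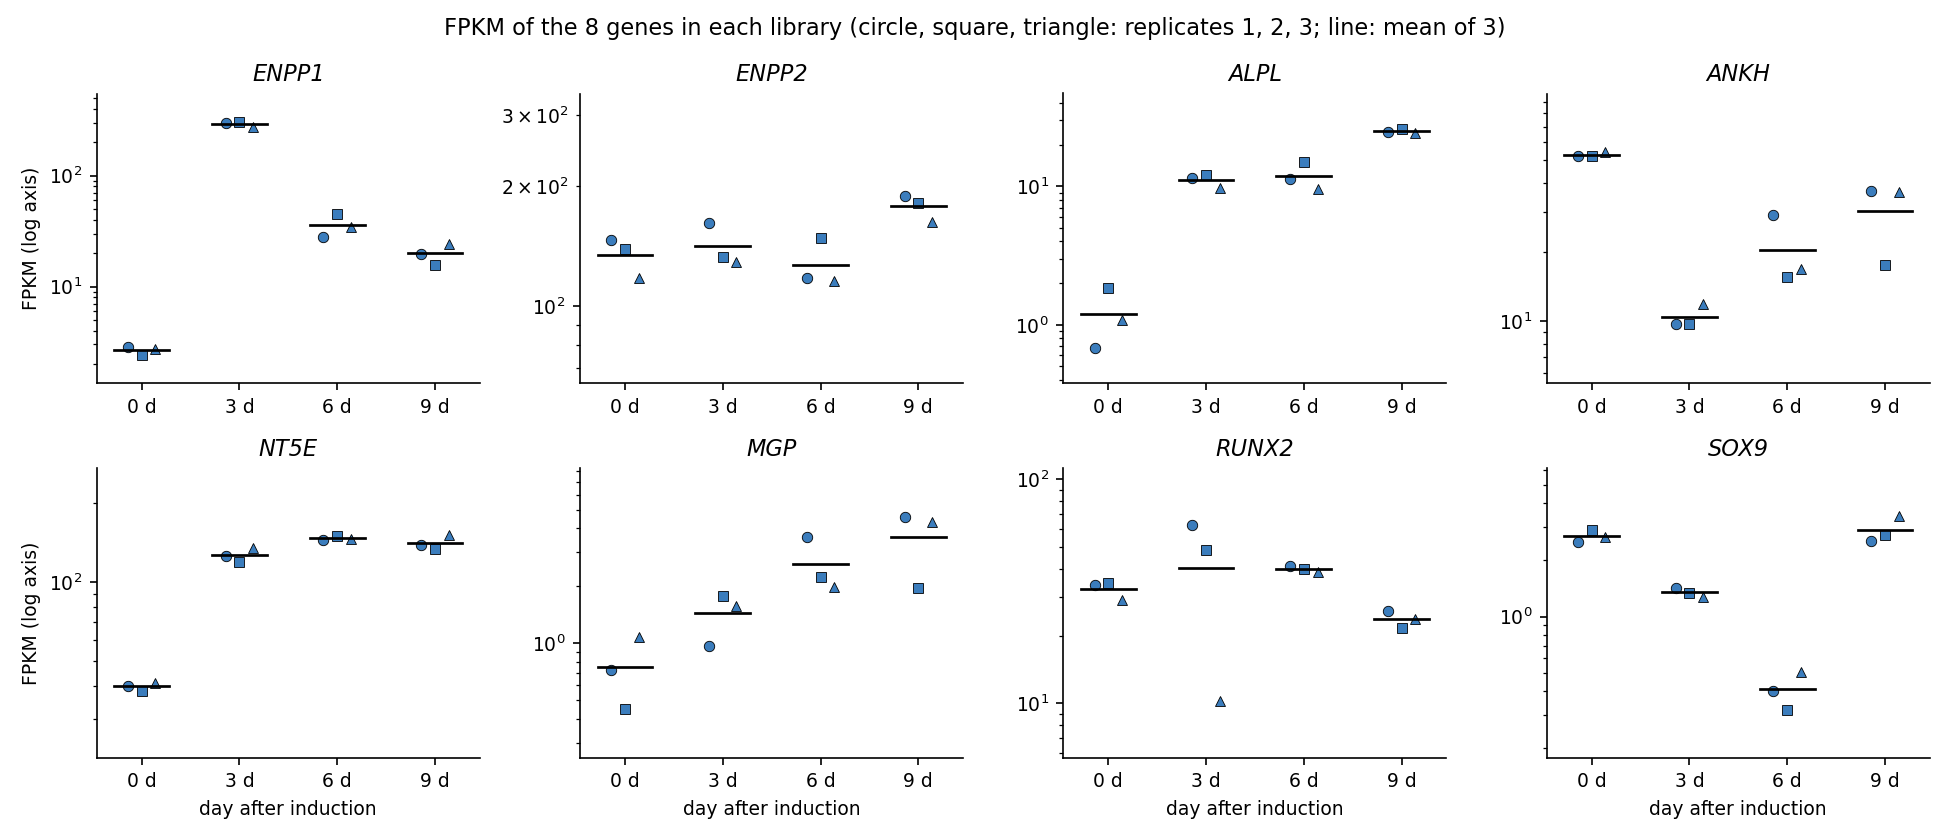
FPKM of the 8 genes (log axis, a scale of its own in each panel) against the day after induction, with 1 symbol per library and a line at the mean of 3. ENPP1 is highest at 3 d and ANKH is lowest there, ALPL is highest at 9 d, ENPP2 stays between 116 and 189 FPKM, and the third 3 d library of RUNX2 lies far below the other libraries of its day.

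FPKM are scaled for transcript length, so the genes can also be set in order within a day. At 0 d the order by mean FPKM was ENPP2, ANKH, NT5E, RUNX2, SOX9, ENPP1, ALPL and MGP, where the libraries of SOX9 and ENPP1 overlapped, as did those of ALPL and MGP. At 3 d ENPP1 came first, above ENPP2 and NT5E, whose libraries overlapped. RUNX2, ALPL and ANKH followed with overlapping neighbours, and MGP and SOX9, also overlapping, came last. At 6 d NT5E and ENPP2 overlapped at the top, RUNX2, ENPP1 and ANKH followed with each overlapping the next, and ALPL, MGP and SOX9 came last as 3 separate ranges. At 9 d ENPP2 and NT5E led as separate ranges, ANKH, ALPL, RUNX2 and ENPP1 followed with each overlapping the next, and MGP and SOX9 overlapped at the bottom.

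Ratios within a library set the gene that makes pyrophosphate against the genes that remove or release it, on the FPKM scale. The ratio of ENPP1 to ALPL was 4.21, 1.32 and 2.50 in the 0 d libraries and 26.3, 25.3 and 28.1 in those of 3 d. It was 2.45, 3.05 and 3.60 at 6 d, and at 9 d it lay under 1, at 0.782, 0.605 and 0.997. ENPP1 thus exceeded ALPL in FPKM in all 9 libraries of 0, 3 and 6 d and in none of the 3 libraries of 9 d. The ratio of ENPP1 to ANKH averaged 0.0504, 28.5, 1.97 and 0.698 on the 4 days in order, with library ranges of 0.0461 to 0.0548, 23.0 to 31.4, 0.963 to 2.91 and 0.529 to 0.894. Against its relative ENPP2, ENPP1 stood at mean ratios of 0.0200, 2.10, 0.281 and 0.114 on the 4 days in order, above 1 in the 3 d libraries alone of the 12. The ratio of NT5E to ENPP1, the enzymes of successive steps from ATP to adenosine, averaged 15.0, 0.432, 4.24 and 7.24 at 0, 3, 6 and 9 d. RUNX2 exceeded SOX9 in all 12 libraries, with ratios between 6.97 and 13.5 at 0 d and 9 d, between 8.11 and 43.9 at 3 d and between 75.7 and 125 at 6 d.

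**Figure D2:**
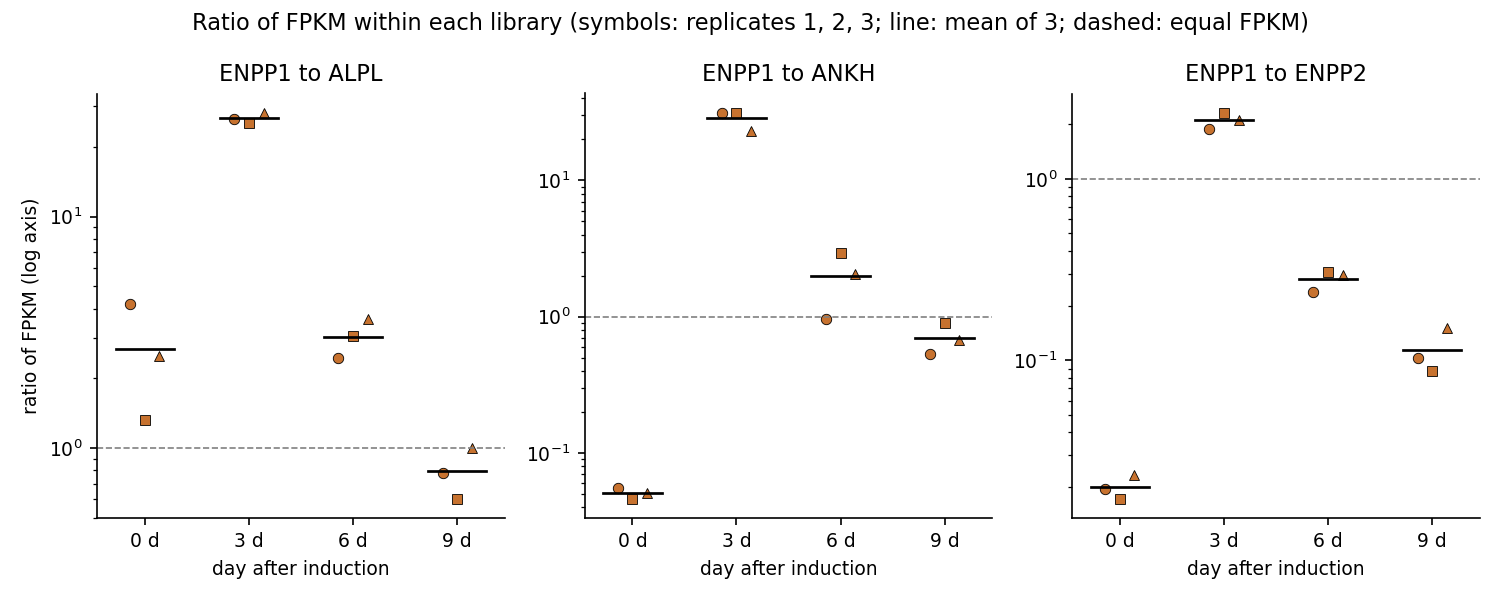
Ratio of the FPKM of ENPP1 to that of ALPL, ANKH and ENPP2 in each library (log axis) against the day after induction, with 1 symbol per library, a line at the mean of 3 and a dashed line where both genes are equal. All 3 ratios peak at 3 d, and the ratio to ALPL ends under 1 at 9 d, at 0.605 to 0.997.

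The mRNAs with the most similar course were found by Pearson r over the 12 libraries on log2(FPKM + 0.1), among 11330 mRNAs with a mean of at least 1 FPKM. For ENPP1 they were FGF10, a fibroblast growth factor (r = 0.993), MESD, a chaperone of lipoprotein receptors (r = 0.993), the row that joins LOC104969351 and KLF9, a Krüppel-like transcription factor (r = 0.992), TMEM165, a Golgi membrane protein (r = 0.991), and CSF1, a macrophage growth factor (r = 0.990). FGF10 had means of 3.60, 159, 22.8 and 17.7 FPKM on the 4 days in order, within the range of days of ENPP1, whereas TMEM165 had 1176, 3690, 2154 and 1844 FPKM. For NT5E they were LUM (lumican, r = 0.993), with 216, 636, 694 and 683 FPKM, and NDUFA4L2 (r = 0.990). ANKH was most like CAMSAP2 (r = 0.979) and SDHB (r = 0.968), ALPL most like OSMR, a receptor of oncostatin M (r = 0.975), and LOC100297676 (r = 0.975), and SOX9 most like CRABP1 (r = 0.974) and FBN1, the gene of fibrillin (r = 0.969). Values were lower for RUNX2 with LOC104975222 (r = 0.910) and MAP4 (r = 0.899), for MGP with TMEM43 (r = 0.895) and SERPINF1 (r = 0.892) and for ENPP2 with MGAT4A (r = 0.872) and PDHB (r = 0.841). The libraries of a day mostly lie close together, so that most of these r rest on 4 days more than on 12 libraries. Those of RUNX2 rest on the 3 d libraries as well, between which LOC104975222 (8.78 to 56.7 FPKM) and MAP4 (1099 to 2075 FPKM) also spread widely. The names also depend on the measure, since of these 19 mRNAs 14 were named again with a pseudocount of 1, 4 without the log scale and 1 by Spearman rank correlation. None of the 5 named for ENPP1 was named again by either of the last 2 measures.

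Marker genes of 8 cell types were summed to see which cells the cultures resembled. Of the 8 adipocyte markers 6 had a row, while PPARG and PLIN1 had none under those symbols. The summed FPKM of the 6 had means of 10.4, 103, 38.6 and 37.0 on the 4 days in order. The leading gene of this sum changed with the day. LPL (lipoprotein lipase) was the most abundant at 0 d, with 4.53 ± 0.148 FPKM (SD, n = 3). FABP4, the fatty acid binding protein of fat cells, led at 3 d with 91.1 ± 4.42 FPKM and at 6 d with 26.4 ± 1.945 (SD, n = 3), and its mean was 3.30 at 0 d and 9.07 at 9 d. LEP, the gene of the fat hormone leptin, led at 9 d with 20.5 ± 4.43 FPKM (SD, n = 3), and its means of 2.34, 0.07 and 8.02 FPKM on the earlier days were lowest where FABP4 was highest. CIDEC, a lipid droplet protein, was at most 0.57 FPKM in any library and had its highest mean at 9 d. The peak of the sum at 3 d is thus mostly FABP4. ADIPOQ, a hallmark of mature fat cells, was at most 1.64 FPKM in any library, so that it was nearly absent from cells labelled adipocytes. The 7 fibroblast markers, led by COL3A1, summed to means of 119800, 171900, 132000 and 220200 FPKM at 0, 3, 6 and 9 d, nearly all of it COL3A1 and DCN. PDGFRB of that list, with means of 586, 226, 212 and 597 FPKM, and COL1A1, with 3018, 940.7, 3080 and 3393, were lower at 3 d than at 0 d. The 7 of 8 skeletal muscle markers with a row, led by DES, had sums between 824 and 938 FPKM at 0 d and between 269 and 421 on the induced days. The 5 pericyte and smooth muscle markers, led by ACTA2, had sums between 1723 and 1855 FPKM at 0 d, between 82.9 and 93.4 at 3 d, between 1609 and 1726 at 6 d and between 603 and 685 at 9 d. MYH11 of that list went the other way at 3 d, with means of 23.3, 57.2, 33.9 and 20.6 FPKM on the 4 days in order, and RGS5 was at most 0.16 FPKM in any library. The part of the muscle and smooth muscle cells or programmes in the levels of the 8 genes was not tested.

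Defining markers of bone cells, whose leading factor is RUNX2, were nearly absent, while of those of cartilage cells, whose leading factor is SOX9, only ACAN was present. The 5 osteoblast markers summed to means of 0.543, 0.563, 1.03 and 0.81 FPKM at 0, 3, 6 and 9 d, most of it SP7, and DMP1 was at 0 in all 12 libraries. The 5 chondrocyte markers summed to means of 7.03, 0.263, 13.1 and 2.42 FPKM, nearly all of it ACAN, which exceeded SOX9 in FPKM at 0 d and 6 d. The other 4 were at or under 0.04 FPKM in every library, with COL9A1 at 0 in all 12. Endothelial markers summed to 2.47 to 3.49 FPKM in single libraries, led by VWF. Blood and immune markers summed to 1.1 to 3.69 FPKM, led by CD14, with PTPRC and HBB at 0 in all 12 libraries.

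**Figure D3:**
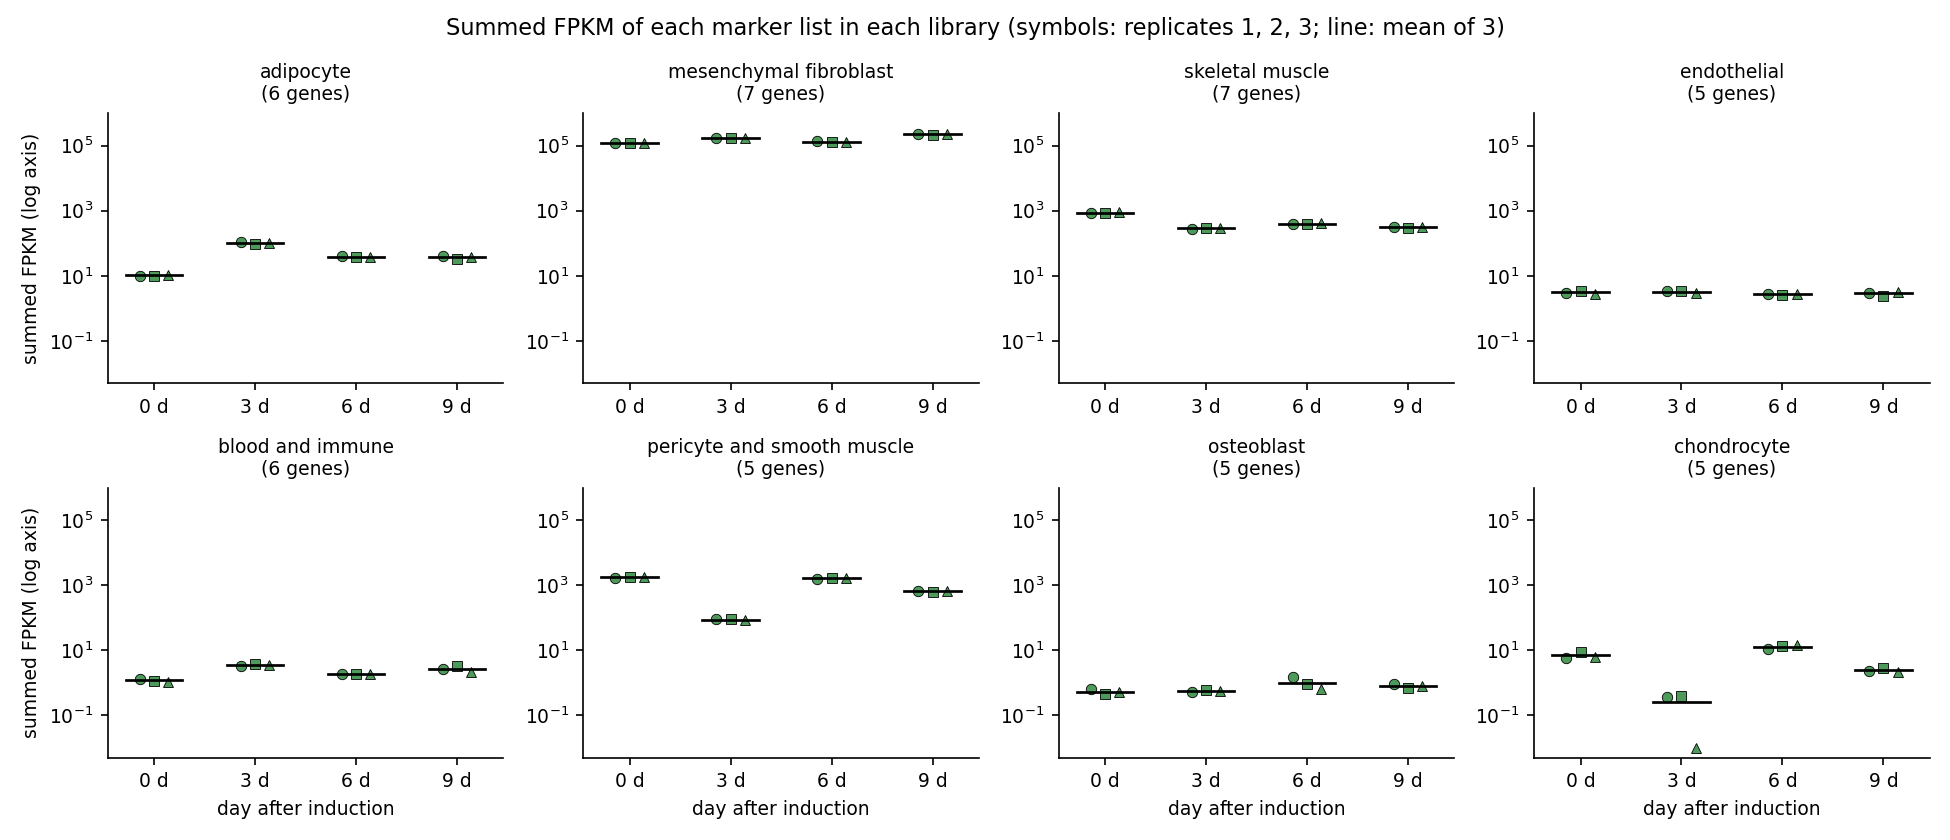
Summed FPKM of each marker list (log axis, the same in all panels) against the day after induction, with 1 symbol per library and a line at the mean of 3. The fibroblast sum is highest by far, the adipocyte sum peaks at 3 d with a mean of 103, mostly FABP4, the smooth muscle sum, mostly ACTA2 at 0, 6 and 9 d, is lowest at 3 d, and the osteoblast sum stays at or under 1.54.

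The wider pathways around the 8 genes were read from 6 lists with 86 other genes, of which 85 had a row and 58 passed the filter. A gene is said to be called, or to rise or fall, when in the limma fit its log2 fold change exceeded 1 in size and its p, adjusted over all 15402 mRNAs of the comparison (Benjamini–Hochberg), was under 0.05. The study compares each induced day with 0 d, which asks what differs from uninduced cells, and 6 d with 3 d and 9 d with 6 d ask what changed between sampled days. The first 3 comparisons share the 0 d libraries, and neighbouring comparisons also share a day. The lists were chosen with earlier results of these data known. A larger share of calls among the listed genes than among all tested mRNAs can therefore follow from that choice, and nothing is concluded from it.

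At 3 d vs. 0 d, 9 of the 58 genes were called higher (15.5%) and 16 lower (27.6%), where 8.06% and 15.2% of all tested mRNAs were called, and the median log2 fold change was -0.26 for the 58 and -0.06 for all. At 6 d vs. 0 d, 4 were higher (6.9%) and 9 lower (15.5%), where all tested mRNAs gave 3.39% and 7.97%, with medians of -0.08 and -0.15. At 9 d vs. 0 d, 5 were higher and 5 lower (8.62% each), where all gave 3.41% and 7.47%, with medians of 0.07 and -0.19. At 6 d vs. 3 d, 12 were higher (20.7%) and 11 lower (19.0%), where all gave 9.85% and 9.23%, with medians of 0.09 and -0.10. At 9 d vs. 6 d, 4 were higher (6.9%) and 1 lower (1.72%), where all gave 2.55% and 1.89%, with medians of 0.10 and -0.04. When the median ratio between libraries was used to rescale them, the median of all tested mRNAs moved up by 0.16 at 6 d vs. 0 d and by 0.19 at 9 d vs. 0 d. The median of the 58 genes was then 0.09 and 0.25, against 0.01 and -0.003 for all, and their calls were 4 higher and 7 lower at 6 d and 5 higher and 2 lower at 9 d. Of all called mRNAs, 29.8% were higher at 6 d and 31.3% at 9 d as deposited, and 40.6% and 46.6% after rescaling. At 9 d vs. 0 d the 5 lower were 2 without the second 0 d library, 3 without the third 0 d, the first 9 d or the second 9 d library and 4 without either of the others, with 5 higher each time.

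**Figure D4:**
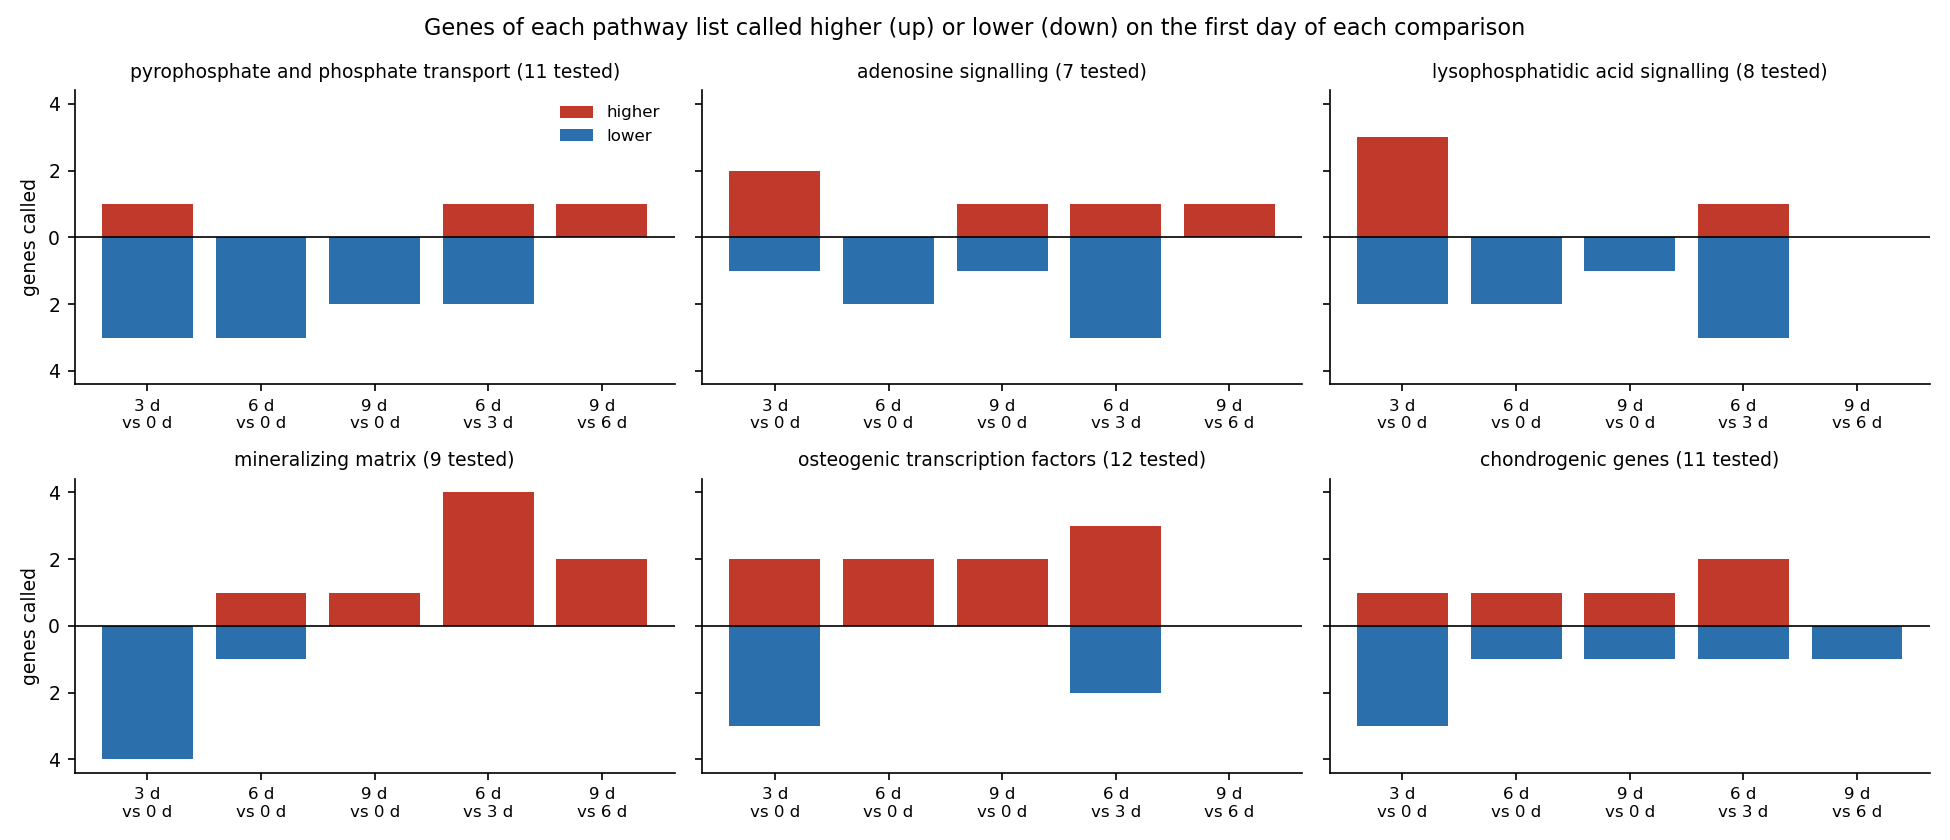
Number of genes of each of the 6 pathway lists called higher (above the line) and lower (below it) on the first-named day of each comparison. The mineralizing matrix list has 4 genes lower at 3 d vs. 0 d and 4 higher at 6 d vs. 3 d, and the lysophosphatidic acid list has 3 higher at 3 d vs. 0 d and 3 lower at 6 d vs. 3 d. Either count of the mineralizing matrix list was 3 when certain libraries were left out.

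Of 16 listed genes of pyrophosphate and phosphate transport 11 were tested, with 1 higher and 3 lower at 3 d vs. 0 d, 3 lower at 6 d, 2 lower at 9 d, 1 higher and 2 lower at 6 d vs. 3 d and 1 higher at 9 d vs. 6 d. The 3 lower at 6 d were 2 after rescaling and 2 to 4 when a library was left out. The 2 lower at 9 d were 1 after rescaling, without the second 0 d library and without the first 9 d library. The lower calls at 3, 6 and 9 d vs. 0 d include PHOSPHO1, with means of 0.257, 0.06, 0.07 and 0.07 FPKM at 0, 3, 6 and 9 d. PHOSPHO1 passed the filter, with a mean of 0.114 FPKM, only through its 0 d level. The filter thus favoured these calls, and nothing is concluded from them. The median log2 fold changes of the 11 genes were -0.29, -0.60, 0.06, -0.24 and 0.01 in that order. The most abundant were SLC20A1, a sodium-phosphate cotransporter, with means of 839, 514, 556 and 851 FPKM at 0, 3, 6 and 9 d, and ENTPD6, a nucleoside diphosphatase, with 97.2, 120, 101 and 108 FPKM, and neither was called. ENTPD5, also a nucleoside diphosphatase, rose from 3.16 ± 0.298 to 8.54 ± 1.09 FPKM at 3 d (SD, n = 3), with a log2 fold change of 1.40 (SE 0.11, adjusted p = 2.67e-06). ENPP4, a relative of ENPP1, fell from 15.9 ± 0.125 to 5.44 ± 1.13 FPKM, with a log2 fold change of -1.55 (SE 0.15, adjusted p = 1.04e-05), and at 6 d vs. 3 d it rose by 1.07 (SE 0.15, adjusted p = 0.000193). ENTPD2, an ectonucleotidase, was scarce and fell from 0.823 FPKM at 0 d to 0.247 and 0.173 at 6 and 9 d, with log2 fold changes of -1.42 (SE 0.23, adjusted p = 0.000898) and -1.78 (SE 0.23, adjusted p = 0.000219), and by 1.18 from 3 d to 6 d (SE 0.23, adjusted p = 0.00176). ENPP5, another relative, rose from 0.807 to 2.55 FPKM between 6 d and 9 d (log2 fold change 1.56, SE 0.12, adjusted p = 1.98e-05). Before that it stood at 2.24 FPKM at 0 d and 1.89 at 3 d, and at 6 d it was called lower than on either day (-1.37 and -1.14). At 9 d vs. 0 d ENPP5 was not called (0.185). ENPP3, which lies next to ENPP1 on chromosome 9, was at 0 in all 12 libraries. The rise of ENPP4 missed the fold threshold at 0.90 without the second 3 d library and at 0.99 without the third 6 d library, and it, the changes of ENTPD2 and the rise of ENPP5 missed it with a pseudocount of 1, at 0.95 for ENPP4, -0.55, -0.63 and -0.43 for ENTPD2 and 0.98 for ENPP5.

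Adenosine, the product of NT5E, acts on receptors and is taken up and removed by the genes of the next list. Of 9 listed genes 7 were tested, with 2 higher and 1 lower at 3 d vs. 0 d, 2 lower at 6 d, 1 higher and 1 lower at 9 d, 1 higher and 3 lower at 6 d vs. 3 d and 1 higher at 9 d vs. 6 d, and medians of -0.35, -0.40, -0.17, -0.19 and 0.22. SLC29A1, the equilibrative nucleoside transporter, was the most abundant, with 295, 298 and 310.4 FPKM at 0 d and 1266, 1395 and 1315 at 3 d (log2 fold change 2.14, SE 0.06, adjusted p = 1.04e-09). It fell again by 1.56 from 3 d to 6 d (SE 0.06, adjusted p = 1.34e-08), to a mean of 449 FPKM, so that the transporter and ENPP1 both had their highest libraries at 3 d. ADA, which deaminates adenosine, took the other direction: the 0 d libraries held 3.76, 4.02 and 5.35 FPKM, the 3 d libraries 0.08, 0.34 and 0, and the 6 d libraries 1.07, 1.2 and 1.7. Its log2 fold change was -4.47 at 3 d vs. 0 d (SE 0.43, adjusted p = 1.16e-05) and 2.81 at 6 d vs. 3 d (SE 0.43, adjusted p = 0.000389). With 3 d values near 0 these sizes depend on the pseudocount, and they were -2.24 and 1.03 with a pseudocount of 1 and -5.99 and 4.26 with one of 0.01. ADK, the adenosine kinase, was next in abundance, with 67.8, 56.4, 73.8 and 72.8 FPKM, and was not called. The receptor ADORA1 fell from 5.69 ± 0.121 FPKM at 0 d to 1.47 ± 0.193 and 0.870 ± 0.271 at 6 and 9 d (SD, n = 3), by 1.89 (SE 0.18, adjusted p = 2.56e-05) and by 2.61 (SE 0.18, adjusted p = 3.17e-06) on the log2 scale. The receptor ADORA2B, with means of 1.55, 5.58, 1.97 and 6.17 FPKM, rose by 1.93 at 9 d vs. 0 d (SE 0.07, adjusted p = 2.89e-08) and by 1.60 at 9 d vs. 6 d (SE 0.07, adjusted p = 3.98e-07). ADORA2B was also called higher at 3 d vs. 0 d (1.79, SE 0.07, adjusted p = 9.22e-09) and lower at 6 d vs. 3 d (-1.46, SE 0.07, adjusted p = 6.05e-08).

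Lysophosphatidic acid, the product of ENPP2, has its own receptors and is broken down by lipid phosphate phosphatases. Of 9 listed genes 8 had a row and all 8 were tested, with 3 higher and 2 lower at 3 d vs. 0 d, 2 lower at 6 d, 1 lower at 9 d and 1 higher and 3 lower at 6 d vs. 3 d. None was called at 9 d vs. 6 d by limma, where 1 was called higher without the first 6 d or the first 9 d library, and the medians were 0.58, 0.05, 0.07, -0.39 and 0.12. LPAR1, a receptor, was the most abundant, with means of 219, 546, 245 and 373 FPKM, called higher at 3 d vs. 0 d and lower at 6 d vs. 3 d. The receptor LPAR2 fell from 21.3, 16.9 and 21.7 FPKM in the 0 d libraries to 1.47, 2.16 and 0.39 in those of 3 d and 4.13, 1.29 and 1.58 in those of 6 d. Its log2 fold changes were -4.05 (SE 0.65, adjusted p = 0.000429) and -3.22 (SE 0.65, adjusted p = 0.00336). Among the phosphatases, PLPP1 rose from 12.4 ± 2.73 to 45.6 ± 9.93 FPKM at 3 d (SD, n = 3; log2 fold change 1.87, SE 0.18, adjusted p = 1.02e-05). PLPP3 was at 53.6, 117, 14.0 and 26.8 FPKM, a fall by 3.05 from 3 d to 6 d (SE 0.08, adjusted p = 1.27e-09) and by 1.00 from 0 d to 9 d (SE 0.08, adjusted p = 6.52e-06). Against 0 d, PLPP3 was also called higher at 3 d (1.12, SE 0.08, adjusted p = 9.23e-07) and lower at 6 d (-1.93, SE 0.08, adjusted p = 6.44e-08). PLPP2 was at 74.0, 31.4, 70.4 and 82.7 FPKM and rose by 1.16 from 3 d to 6 d (SE 0.10, adjusted p = 4.66e-06). The phosphatases thus did not move as a group, since PLPP1 and PLPP3 were highest at 3 d by mean FPKM and PLPP2 was lowest there. The fall of PLPP3 at 9 d lay at the fold threshold and missed it after rescaling (-0.79), with a pseudocount of 1 (-0.98), without the second or the third 0 d library (-0.993 and -0.997) and without the second 9 d library (-0.94).

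The mineralizing matrix list holds the matrix proteins of bone and the enzymes that carboxylate MGP. Of 17 listed genes 9 were tested, with 4 lower at 3 d vs. 0 d, 1 higher and 1 lower at 6 d, 1 higher at 9 d, 4 higher at 6 d vs. 3 d and 2 higher at 9 d vs. 6 d, and medians of -1.18, 0.35, 0.17, 0.21 and 0.13. The 2 higher at 9 d vs. 6 d were 1 without the first or the second library of 6 d or of 9 d, and 1 of the 2, SPP1 (adjusted p = 0.0319), had overlapping libraries. COL1A2, a chain of type I collagen, was the most abundant, with means of 10800, 4771, 13780 and 14320 FPKM, called lower at 3 d vs. 0 d and higher at 6 d vs. 3 d. Next came SPARC with 5925, 4966, 5571 and 5602, which was not called. COL1A1, the other chain, fell from 3018 ± 111 to 940.7 ± 57.2 FPKM at 3 d (SD, n = 3; log2 fold change -1.68, SE 0.06, adjusted p = 6.49e-09). The sum of the smooth muscle markers, led by ACTA2, was also lowest at 3 d, although MYH11 was highest there, and the part of these cells in the falls was not tested. SPP1 (osteopontin), a phosphoprotein that binds mineral, was at 0.72, 0.68 and 0.38 FPKM at 0 d, 0.24, 0.14 and 0.14 at 3 d, 1.74, 1.33 and 3.05 at 6 d, with 5.84, 7.32 and 3.02 at 9 d. It rose by 1.59 at 6 d (SE 0.38, adjusted p = 0.00897) and by 2.94 at 9 d (SE 0.38, adjusted p = 0.000224) against 0 d, and by 2.91 from 3 d to 6 d (SE 0.38, adjusted p = 0.00013). GAS6, a vitamin K-dependent protein like MGP, was called lower already at 3 d, at 0.747 FPKM against 2.18 at 0 d (log2 fold change -1.46, SE 0.21, adjusted p = 0.000204). At 6 d GAS6 stood at 0.70 FPKM (-1.52 from 0 d, SE 0.21, adjusted p = 0.000313), and it rose to 2.40 at 9 d (1.65 from 6 d, SE 0.21, adjusted p = 0.000426). With a pseudocount of 1, the rise of SPP1 at 6 d missed the fold threshold, at 0.90. So did GAS6 at 6 d vs. 0 d, at -0.90, and its rise from 6 d to 9 d, at just under 1. The other 2 changes of SPP1 were then 1.95 and 1.34.

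Among the relatives and companions of RUNX2, 15 genes were listed and 12 tested, with 2 higher and 3 lower at 3 d vs. 0 d, 2 higher at 6 d, 2 higher at 9 d and 3 higher and 2 lower at 6 d vs. 3 d. None was called by limma at 9 d vs. 6 d. Without the third 6 d library 3 were higher and 1 lower at 6 d vs. 0 d, and 3 higher and 3 lower at 6 d vs. 3 d. The 3 higher at 6 d vs. 3 d were 2 without the third 3 d library, the first 6 d library or the second 6 d library. The medians were 0.30, -0.04, 0.07, 0.26 and -0.09, of which the second was 0.13 after rescaling. RUNX1 (means of 256, 285, 380.4 and 273 FPKM) and CBFB (231, 207, 148 and 139), the relative and the binding partner of RUNX2, were the most abundant, and neither was called. DLX5, a homeobox factor of osteoblasts, was listed at 0 in the 3 libraries of 0 d and at 0.41, 0.69 and 0.88 FPKM at 3 d (adjusted p = 6.4e-05) and 0.15, 0.43 and 0.57 at 6 d (adjusted p = 0.00092). At 9 d it was at 0.36, 0.23 and 0.26 FPKM and was called higher than at 0 d as well (adjusted p = 0.00186). None of these 3 calls can reach the fold threshold with a pseudocount of 1, since all the values lie under 1 FPKM. DLX3 fell from 4.24 ± 0.451 to 0.977 ± 0.168 FPKM at 3 d (SD, n = 3; log2 fold change -2.02, SE 0.17, adjusted p = 3.81e-06). MSX1 stood at 27.1 ± 1.66, 37.4 ± 5.80, 67.8 ± 3.16 and 109 ± 4.42 FPKM at 0, 3, 6 and 9 d (SD, n = 3), a rise by 2.01 at 9 d vs. 0 d (SE 0.10, adjusted p = 3.66e-07). From 3 d to 6 d, ATF4 rose from 47.8 to 137 FPKM (log2 fold change 1.52, SE 0.08, adjusted p = 2.5e-07) and TCF7, a factor of Wnt signalling, fell from 12.1 to 4.89 FPKM (-1.28, SE 0.24, adjusted p = 0.0014). Both had moved the other way before, from means of 162 FPKM for ATF4 and 4.52 for TCF7 at 0 d. At 3 d vs. 0 d ATF4 was called lower (-1.76, SE 0.08) and TCF7 higher (1.38, SE 0.24).

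Of the partners and targets of SOX9, 20 genes were listed and 11 tested, with 1 higher and 3 lower at 3 d vs. 0 d, 1 higher and 1 lower at 6 d, 1 higher and 1 lower at 9 d, 2 higher and 1 lower at 6 d vs. 3 d and 1 lower at 9 d vs. 6 d. Without the second 0 d library 2 were higher at 3 d vs. 0 d. The medians were -0.27, -0.17, -0.04, 0.14 and 0.24, of which the third was 0.14 after rescaling. COL11A1, a chain of cartilage collagen, was the most abundant, with means of 182, 24.6, 201 and 279 FPKM, called lower at 3 d vs. 0 d and higher at 6 d vs. 3 d. ACAN (aggrecan), a target of SOX9, was at 6.01, 8.72 and 6.31 FPKM at 0 d, 0.37, 0.41 and 0 at 3 d, 10.8, 13.9 and 14.7 at 6 d, with 2.29, 2.83 and 2.09 at 9 d. It fell by 4.61 at 3 d vs. 0 d (SE 0.52, adjusted p = 3.54e-05), rose by 5.51 at 6 d vs. 3 d (SE 0.52, adjusted p = 1.26e-05) and fell by 2.40 at 9 d vs. 6 d (SE 0.52, adjusted p = 0.00875). With a pseudocount of 1 the first 2 of these changes were -2.67 and 3.49, and with one of 0.01 they were -5.89 and 6.80. ACAN was highest at 6 d, the day on which SOX9 was lowest. At 9 d vs. 0 d its log2 fold change was -1.50 (SE 0.52, adjusted p = 0.0459), and adjusted p was 0.0812 after rescaling and 0.121 with no filter on low values. Leaving out any 1 of the 6 libraries compared ended that call, with adjusted p of 0.0755 without the second 9 d library, 0.0777 and 0.0808 without the first and the third of 0 d, 0.102 and 0.112 without the first and the third of 9 d and 0.127 without the second of 0 d. SOX5, a cofactor of SOX9, rose from 11.5 FPKM in uninduced cells to 36.7 at 6 d (log2 fold change 1.90, SE 0.43, adjusted p = 0.0067) and 33.1 at 9 d (1.72, SE 0.43, adjusted p = 0.011). Its 0 d libraries held 7.66, 21.1 and 5.63 FPKM, and without the second the log2 fold changes were 2.45 and 2.27. SOX6, the other cofactor, was called lower already at 3 d, at 3.78 FPKM against 9.21 at 0 d (-1.26, SE 0.14, adjusted p = 3.44e-05). At 6 d SOX6 stood at 4.17 FPKM, again called lower than at 0 d (-1.12, SE 0.14, adjusted p = 0.000163). PRG4 (lubricin) rose from 0.963 to 3.07 FPKM at 3 d (1.61, SE 0.29, adjusted p = 0.00102) and fell by 1.78 from 3 d to 6 d (SE 0.29, adjusted p = 0.000607), sizes that were 1.05 and 1.15 with a pseudocount of 1. The difference of SOX6 between 6 d and 0 d missed the fold threshold with a pseudocount of 1 (-0.98) and after rescaling (-0.95). The rise of SOX5 at 9 d had an adjusted p of 0.0531 with only the 6 libraries compared (0.000431 to 0.0531 over all alternatives). The 9 d values of ACAN missed the threshold with a pseudocount of 0.01, with an adjusted p of 0.341 against 0 d (0.000413 to 0.341 over all alternatives) and of 0.181 against 6 d (2.99e-05 to 0.181).

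**Figure D5:**
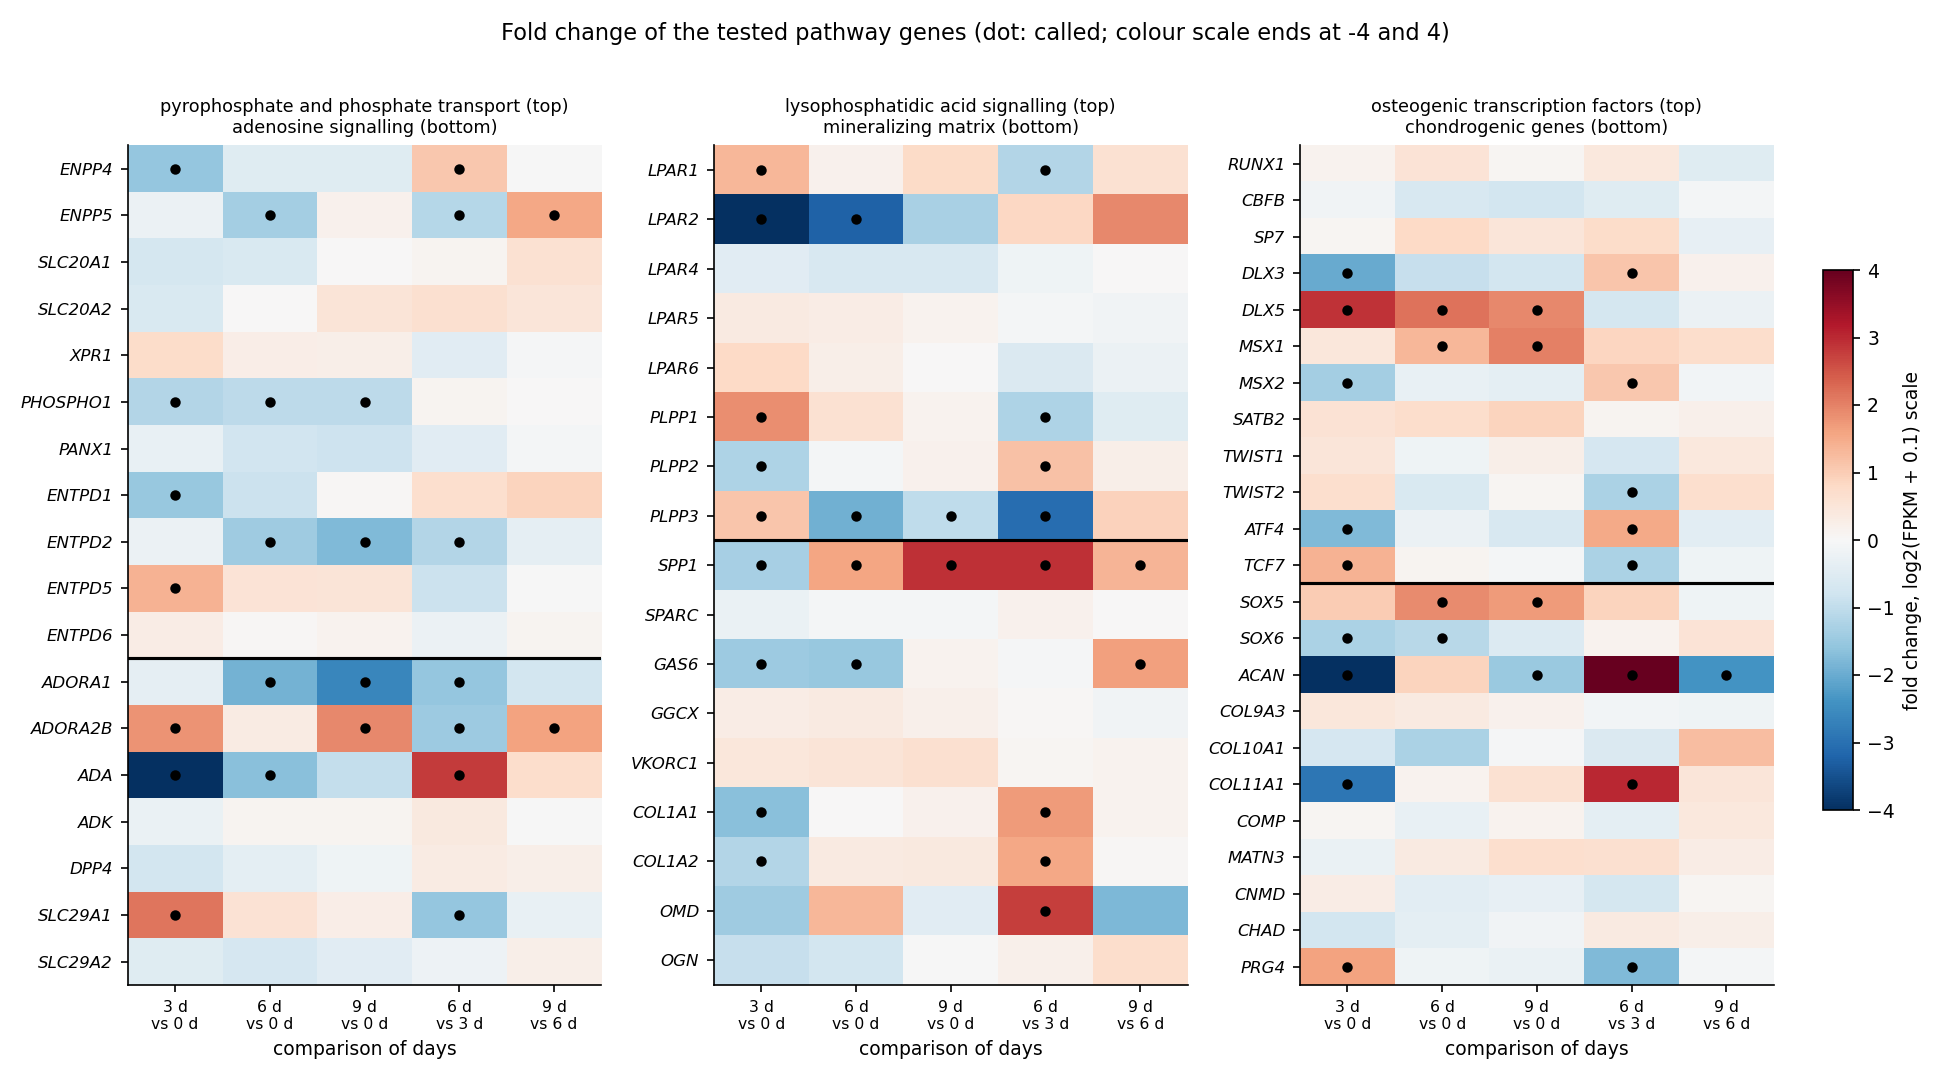
Fold change of the 58 tested pathway genes (rows, 3 blocks of 2 lists each) in the 5 comparisons of days (columns), as colour on the log2(FPKM + 0.1) scale, red for higher and blue for lower on the first-named day, with a dot where the gene was called. SLC29A1, PLPP1 and ENTPD5 are higher at 3 d, ADA, LPAR2, COL11A1 and ACAN are lower there, and SPP1 and MSX1 are higher at 9 d vs. 0 d.

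Circular RNAs (circRNAs) of 5 of the 8 genes were found. The circRNA table names a host gene for its rows, and 16 of its 14070 rows belonged to these genes, with 35 back-spliced reads over the 12 libraries in all. ENPP1 had 7 of these rows and 13 reads: 0 in each 0 d library, 2, 2 and 5 at 3 d, 1, 0 and 2 at 6 d, with 1, 0 and 0 at 9 d. Reads of ENPP1 circles were thus seen most at 3 d, the day of most ENPP1 mRNA, in each of its 3 libraries, and no difference between days was tested. By its 13 reads ENPP1 took place 1070 of 4486 named host genes, whose median was 4 reads. For 0 d, a count of 0 allows up to 3 reads, which is 1.38 per 10000 back-spliced reads of that day, for counting error only. The ENPP1 row found in most libraries was circRNA6616, which joins 12 exons of the plus strand of chromosome 9 from 69799939 to 69815551, as the file gives them on the assembly ARS-UCD1.2 named in the methods, with 3 reads in 3 libraries. RUNX2 had 4 rows and 11 reads, of which 6 belonged to circRNA476, the row with most reads among the 16. These 11 reads were 1, 4, 1 and 5 on the 4 days in order, of 21816, 24067, 19650 and 30141 back-spliced reads in all, while RUNX2 mRNA was lowest at 9 d. ANKH had 2 rows and 5 reads, 4 of them at 0 d, where its mRNA was also highest. NT5E had 2 rows and 3 reads, 2 of them at 0 d, where its mRNA was lowest. ENPP2 had 1 row and 3 reads, 2 of them at 3 d, and ALPL, MGP and SOX9 had none. All 16 rows are distinct junctions, since summing rows within 5 bp left 16.

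By position, 2 of the 8 genes, ENPP1 and NT5E, lie on chromosome 9, and the others lie on chromosomes 2 (ALPL), 5 (MGP), 14 (ENPP2), 19 (SOX9), 20 (ANKH) and 23 (RUNX2), from the RefSeq gene table of a later assembly, in which all 8 symbols were found. MED23, on the same side of ENPP1 as ENPP3 and next after it, had mean FPKM of 29.6, 32.1, 25.5 and 21.7 at 0, 3, 6 and 9 d. ENPP4 lies 2 genes after RUNX2, with CLIC5 between them, and CLIC5 had means of 3.09, 0.113, 0.127 and 1.44 FPKM. ECE1, the gene after ALPL, had means of 7.74, 17.3, 12.2 and 11.7 FPKM, with its highest day at 3 d and not at 9 d as for ALPL. KCNJ2, the gene after SOX9, had means of 42.0, 9.37, 6.89 and 5.46 FPKM.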

How the data were processed

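RNA was measured in 12 libraries, grouped by the day in their labels. The authors trimmed reads with Trimmomatic and mapped them, by the methods, to ARS-UCD1.2, while the processing notes name mm8, Bowtie 0.12.2, HISAT2 2.0 and StringTie 1.3.0. The labels describe poly(A) selection and the methods rRNA depletion. The deposited mRNA values are FPKM by the authors. The deposited circRNA values are counts of back-spliced reads, called by the authors with CIRCExplorer2 and CIRI, and SRPBM, a signal that the authors scaled from the counts. The 36 other value columns, of lncRNAs and miRNAs, were not used.

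Genes and lists were chosen with earlier results of these data known. limma 3.58.1 (R 4.3.3; lmFit, contrasts.fit, eBayes with a trend) was fitted on log2(FPKM + 0.1) of 15402 mRNAs as 1 model of the 12 libraries with 1 mean per day, and was tested on simulated data. Named are, in each list, the 2 genes with the highest mean FPKM and, per comparison, the called genes with the largest rise and fall whose libraries do not overlap, and in each marker list the most abundant gene and those at 0. Neighbouring genes, ENPP3, other marker genes, circRNAs and the genes under other observations were chosen after their values were seen. Differences of the 8 genes are differences of mean log2(FPKM + 0.1), with the SE from the SD of each day. Python 3.11.15 with pandas 2.3.3, NumPy 2.4.6 and Matplotlib 3.10.9 served for tables and figures. Alternatives were pseudocounts of 1 and 0.01, no filter, a mean of at least 1 FPKM, rescaling by the median ratio, fits of 6 libraries, a replicate block, no minimum fold change, leaving out each library, other measures of likeness and summed circRNA junctions.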

Additional observations from a re-analysis of the deposited data

How the results depend on the processing

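Counts of called pathway genes were 25, 13, 10, 23 and 5 at 3, 6 and 9 d vs. 0 d, 6 d vs. 3 d and 9 d vs. 6 d. With no minimum fold change they were 40, 31, 26, 37 and 16, since the rule then asks for less, and the share of all tested mRNAs called was 52.2, 34.8, 36.8, 49.5 and 20.7%. With a pseudocount of 1 they were 19, 6, 6, 18 and 4. The share of all tested mRNAs called was then 14.2, 6.28, 5.77, 11.0 and 2.39%, against 23.3, 11.4, 10.9, 19.1 and 4.43% in the main fit. A larger pseudocount makes the fold changes of low values smaller, and how much of the loss comes from this was not tested. Leaving out 1 library gave 24 to 25, 12 to 14, 7 to 9, 21 to 22 and 4 to 5. Of 42 named changes in 24 genes, 27 were called under every alternative and 39 in every fit that left out a library, and none reversed. A mean of at least 1 FPKM leaves DLX5 and ENTPD2 out of the fit. Of 120 log2 differences of the 8 genes under other settings, 21 moved by at least the SD between libraries. The 16 circRNA rows stayed 16 after summing.

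Fitting the replicate number as a replicate block gave 25, 13, 10, 23 and 4. Of 18 pairs of libraries with the same number on different days, 2 had an r over 0.1 after removing day means. The mean r was 0.03 against -0.01 for other numbers, and 6 of the 12 libraries were closest to their own number. No strong link by number was seen, and these r cannot exclude a weak one.

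FPKM hold no counts, so the precision of low values such as those of MGP, SOX9 and DLX5 is known only from 3 libraries per day. No value of the 8 genes was tested, nor were the 35 back-spliced reads of their circRNAs.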

Other observations

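Some listed genes outside the accounts above had levels of note. GGCX and VKORC1, the carboxylase of vitamin K-dependent proteins such as MGP and the reductase that recycles its cofactor, had means of 329.7, 401.5, 419.6 and 381.4 FPKM and of 784, 1078, 1126 and 1232 FPKM at 0, 3, 6 and 9 d. Both were thus far above MGP, whose highest day mean was 3.62 FPKM. PDGFRA, a receptor of mesenchymal precursors, had 925, 963 and 900.4 FPKM in the 3 d libraries and 148 to 210 in the other 9, while PDGFRB and COL1A1 of the same marker list had lower means at 3 d than at 0 d. PANX1, a channel that releases ATP, spread widely within the induced days. At 3 d its libraries held 126, 115 and 57.3 FPKM, and at 6 d 101, 86.4 and 36.1 FPKM. Those of 9 d held 50.7, 45.2 and 115 FPKM, with the third the highest, while those of 0 d held 116, 109 and 120 FPKM. The third 3 d library, which held the least RUNX2, was also the lowest of its day for PANX1. These values were picked after they were seen and were not compared by a test.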
